A study of Mus musculus with 56 samples.

Results

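The 8 genes described here encode parts of the junctions that hold epithelial cells together. They are 5 claudins (Cldn1, Cldn3, Cldn4, Cldn7 and Cldn8), occludin (Ocln), E-cadherin (Cdh1) and the epithelial cell adhesion molecule (Epcam). They were taken as a named list, matched by Ensembl identifier to GENCODE M21, and are 8 of the 50600 genes quantified in each sample. RNA came from cortical and medullary thymic epithelial cells (cTECs and mTECs) of mice, in 56 samples, 28 per cell type. All mice were B.6SJL-Ptprca Pep3b/BoyJ-CD45.1 (B6.SJL) females. Non-pregnant controls (NPC) were age-matched, D-2 mice were in late gestation after mating with BALB/cJ males, and from D0 (parturition) to D28 the mice had lost their pups at birth, so that none was lactating. In either cell type, NPC and D-2 had 3 samples apiece, as had D0, D3, D6 and D12 after parturition. A single sample stood for every one of D1, D2, D4 and D5, for D8 and D10, and for D16, D20, D24 and D28. Each sample came from 1 mouse. The labels do not say whether a cTEC and an mTEC sample came from the same mouse, and the main tests treat them as unpaired. D0 to D12 (18 samples per cell type) is called the early phase and D16 to D28 (4 samples per cell type) the late phase.

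Claudins are membrane proteins that polymerise into the strands of tight junctions and set how permeable the gap between cells is. Occludin runs in the same strands. E-cadherin builds the adherens junction below them, and EpCAM binds claudin-7 at the lateral membrane and keeps it there. In the thymus the epithelium forms a loose network rather than a sheet, and claudin-3 and claudin-4 have been used as surface markers of the medullary lineage. EpCAM was also the protein on which these cells were enriched and sorted, UEA1 lectin then separating mTECs (positive) from cTECs (negative), so Epcam levels describe cells chosen for that protein.

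The genes lie on 6 chromosomes of GRCm38, and all are protein coding. Cldn4 (chr5:134945119-134946934, minus strand) and Cldn3 (chr5:134986214-134987472, plus strand) are neighbours, 39.3 kb apart. Cldn7 is at chr11:69964779-69967885 (plus), Cldn1 at chr16:26356642-26371841 (minus), Cldn8 at chr16:88560828-88563183 (minus), Ocln at chr13:100496507-100552718 (minus), Epcam at chr17:87635979-87651129 (plus) and Cdh1 at chr8:106603351-106670246 (plus). RefSeq promoter windows (GRCm38.p6) were at hand for 6 of the 8 genes, Cldn8 and Cdh1 being the others. The 250 bases before the start are shown for the 3 claudins whose levels ran alongside each other in both cell types and for Cldn1, which ran alongside Cldn3 in cTECs.
Cldn3: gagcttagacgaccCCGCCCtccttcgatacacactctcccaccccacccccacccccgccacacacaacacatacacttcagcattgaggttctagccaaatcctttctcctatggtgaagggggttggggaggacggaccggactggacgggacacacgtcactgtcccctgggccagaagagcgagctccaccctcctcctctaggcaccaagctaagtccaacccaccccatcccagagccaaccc
Cldn4: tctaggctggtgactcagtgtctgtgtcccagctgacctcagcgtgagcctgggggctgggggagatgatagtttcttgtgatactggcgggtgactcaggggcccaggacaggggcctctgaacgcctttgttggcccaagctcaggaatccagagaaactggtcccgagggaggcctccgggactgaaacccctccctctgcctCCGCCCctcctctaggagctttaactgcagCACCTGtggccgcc
Cldn7: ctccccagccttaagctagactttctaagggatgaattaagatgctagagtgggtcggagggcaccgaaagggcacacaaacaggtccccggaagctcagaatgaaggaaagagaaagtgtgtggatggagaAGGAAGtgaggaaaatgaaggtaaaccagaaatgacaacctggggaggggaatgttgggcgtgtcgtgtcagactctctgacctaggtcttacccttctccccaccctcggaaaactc
Cldn1: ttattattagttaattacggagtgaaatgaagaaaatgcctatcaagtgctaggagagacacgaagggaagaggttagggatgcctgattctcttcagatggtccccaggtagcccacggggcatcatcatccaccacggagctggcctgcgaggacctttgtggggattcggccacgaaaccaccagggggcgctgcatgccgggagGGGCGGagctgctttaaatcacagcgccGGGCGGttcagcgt
The windows are chr5:134985964-134986213 (plus), chr5:134946935-134947184 (minus), chr11:69964529-69964778 (plus, the first of 2 RefSeq starts) and chr16:26371840-26372089 (minus), each read 5′ to 3′ on the gene's strand. Capitals mark matches, on either strand, to 4 motifs: the grainyhead-like motif AACCNGTT, the E-box CAGGTG bound by SNAI and ZEB repressors, the GC-box GGGCGG and the ETS motif AGGAAG. The window of Cldn3 held 1 GC-box, 236 bases before the start. That of Cldn4 held a GC-box at 44 bases and an E-box at 14 bases, that of Cldn7 an ETS motif at 118 bases and that of Cldn1 GC-boxes at 42 and 14 bases. The window before the other RefSeq start of Cldn7 held ETS motifs at 233 and 106 bases, E-boxes at 97 and 57 bases and a GC-box at 6 bases. Among 32851 RefSeq windows of this length, 32.7% held the GC-box, 29.5% the ETS motif, 17.2% the E-box and 1.79% the grainyhead-like motif. The grainyhead-like letters were in none of the windows of these 6 genes. A match of letters is a description of the sequence and not a binding site.

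Libraries held between 4561208 and 108547384 expected counts. The cells matched their labels: 8 of 8 cTEC markers were lower in mTECs and 7 of 8 mTEC markers higher. One library stood apart, cTEC D3 replicate 2, with 9813 genes above 1 FPKM against 12186 to 14396 in the other cTEC libraries. Transcripts used as markers of other cells were present. Whether other cells or the sorted cells themselves made them was not tested. The summed FPKM of 4 parathyroid markers (Pth, Chga, Casr, Gcm2) spanned 89.3 to 9342 among cTEC samples and 19.2 to 1693 among mTEC samples. That of 12 thymocyte markers spanned 22.4 to 315 and 8.70 to 106, respectively. In sorted bulk samples, fewer cells that express a gene and less of its RNA per cell cannot be told apart.

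The 8 genes fell into 3 ranges of expression. On the FPKM scale, which corrects for gene length and library size, Epcam and Cdh1 were highest, with means over the 28 samples of 108 and 139 in cTECs and of 177 and 161 in mTECs. Cldn1, Cldn3, Cldn4 and Cldn7 lay between 12.7 (Cldn3) and 34.6 (Cldn1) in cTECs and between 17.1 (Cldn3) and 38.0 (Cldn4) in mTECs. Ocln (2.46 and 5.36) and Cldn8 (1.52 and 0.778) were near the bottom. Ocln was listed at 0 in 4 cTEC and 2 mTEC libraries and Cldn8 in 3 and 6, while Cldn7 was listed at 0 once, in cTEC D3 replicate 2. In those libraries 3 counts, the upper limit that a count of 0 allows, would correspond to 0.0404 to 0.262 FPKM for Ocln, 0.0345 to 0.167 FPKM for Cldn8 and 0.403 FPKM for Cldn7. These limits cover counting error only.

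**Figure D1:**
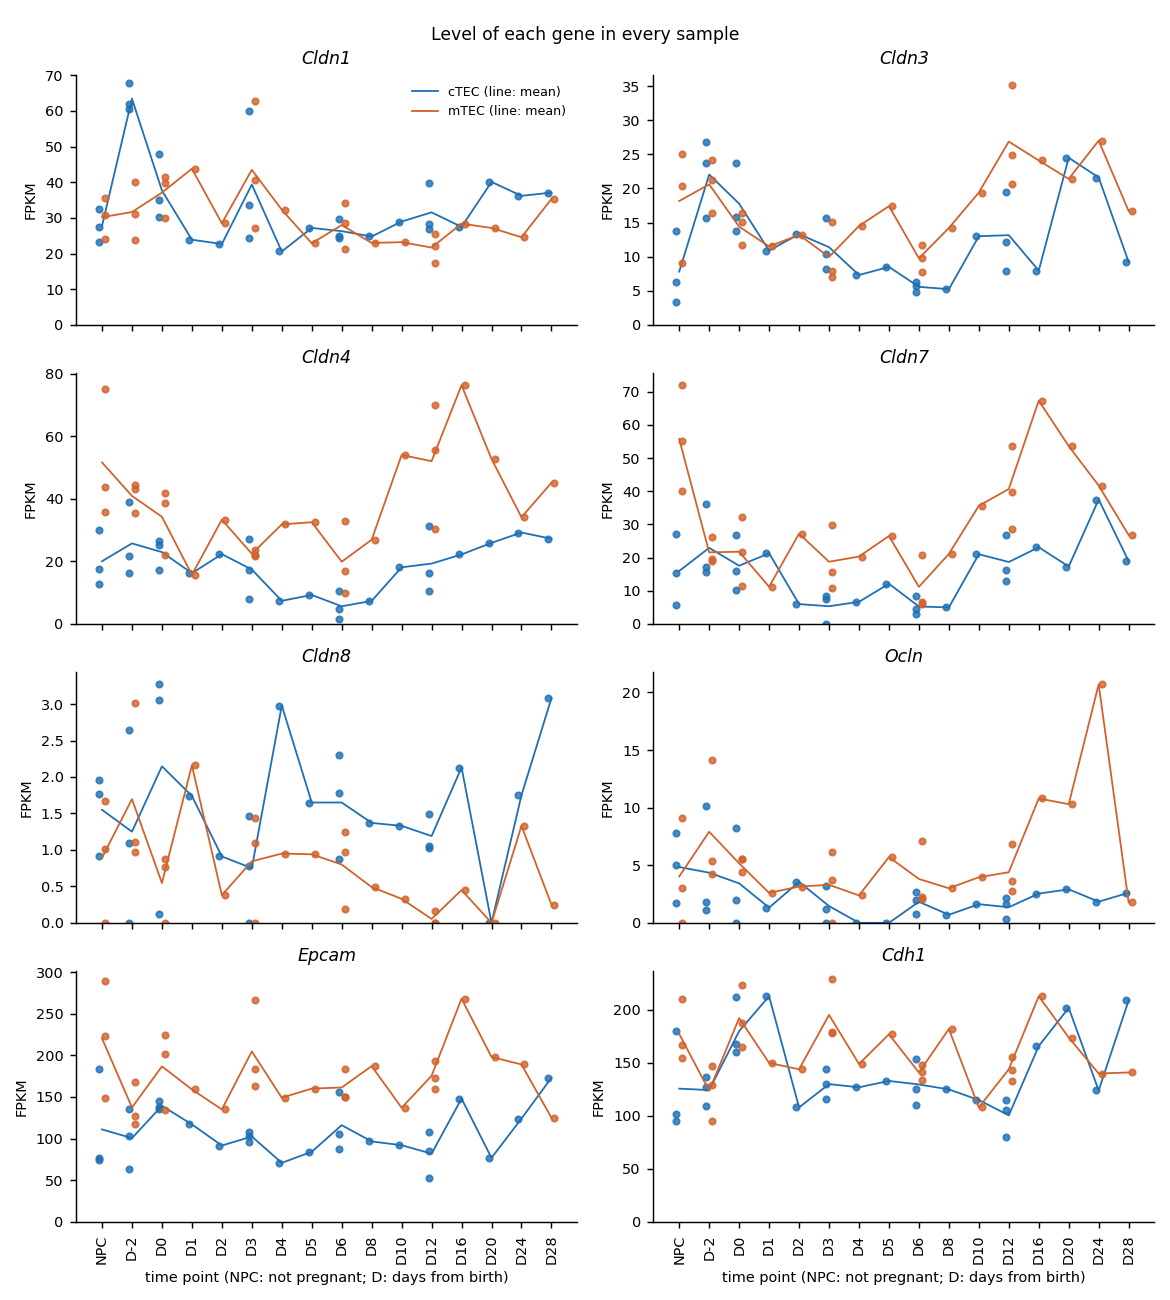
Level of each of the 8 genes (FPKM, linear axis from 0) in every sample, with time points from NPC to D28 placed at equal steps along the x axis. Points are samples and lines join the means of cTECs (blue) and mTECs (orange). Cldn1 stands at 60.6 to 67.7 in the 3 cTEC samples of D-2, and Cldn4 in mTECs lies above cTECs in the mean at 15 of 16 time points.

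Comparing the cell types over all time points asks which junction genes differ between cortex and medulla. Cldn4, Cldn7 and Ocln were higher in mTECs by at least 2-fold (limma-voom, adjusted p at most 0.01), 3 of the 8 genes, where 23.3% of all genes tested were called. Epcam, Cldn3 and Cdh1 were higher by less than 2-fold, and Cldn1 and Cldn8 did not pass the test. The median log2 change of the 8 genes was 0.69, against 0.09 over all 18394 genes tested. This too is a description only, since the genes were chosen with earlier results of these data known.

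Cldn4, a tight-junction claudin, had a lowest, median and highest level of 1.68, 17.4 and 39.0 FPKM in cTECs and of 9.72, 34.7 and 76.3 FPKM in mTECs. The ranges overlapped, but the mTEC mean was the higher one at 15 of 16 time points. The log2 difference was 1.19 (SE 0.17, adjusted p = 8.02e-07, limma-voom), and the ratio of mean FPKM was 2.06.

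Cldn7, the claudin that binds EpCAM, ranged from 0 through a median of 15.3 to 37.5 FPKM in cTECs and from 6.13 through 26.6 to 71.9 FPKM in mTECs. Its mTEC mean was higher at 14 of 16 time points, with a log2 difference of 1.18 (SE 0.22, adjusted p = 3.98e-05, limma-voom). At NPC, D3 and D12 its 3 mTEC samples all lay above the 3 cTEC samples. Without cTEC D3 replicate 2 the log2 difference was 1.0, just under the 2-fold limit, with an adjusted p of 1.56e-05 (limma-voom).

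Ocln had medians of 1.83 FPKM in cTECs and 4.12 FPKM in mTECs, with highest levels of 10.1 and 20.7 FPKM, and the mTEC mean was higher at 13 of 16 time points. The voom log2 difference of 2.37 (SE 0.53, adjusted p = 0.00035) was taken with 6 libraries at 0, and the ratio of mean FPKM was 2.18. On the log2(FPKM + 0.5) scale limma-trend gave 1.27, and the call was lost (adjusted p = 0.0105).

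The mTEC mean of Epcam was higher at 15 of 16 time points. Its lowest, median and highest levels were 53.0, 103 and 183 FPKM in cTECs and 117, 165 and 289 FPKM in mTECs, a log2 difference of 0.75 (SE 0.10, adjusted p = 1.21e-07, limma-voom) that lies under the 2-fold limit. Cldn3 (log2 difference 0.63, SE 0.17, adjusted p = 0.0021, limma-voom) and Cdh1 (0.20, SE 0.06, adjusted p = 0.0061, limma-voom) each had the higher mean in mTECs at 11 of 16 time points. These 2 differences were smaller than the range of either gene within a cell type, which was 3.34 to 26.8 FPKM for Cldn3 and 80.4 to 213 FPKM for Cdh1 in cTECs.

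Cldn1 was the claudin with the most similar levels, with medians of 29.3 FPKM in cTECs and 28.5 FPKM in mTECs. Its log2 difference was -0.05 (SE 0.09, adjusted p = 0.69, limma-voom). Its mTEC mean was the higher one at 7 of 16 time points. For Cldn8, a claudin read at low counts here, the mTEC mean was higher at 3 of 16 time points. Its log2 difference of -1.37 (SE 0.61) had an adjusted p of 0.058 (limma-voom), and sample quality weights brought it past the threshold (-1.52, adjusted p = 0.0078).

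Taken time point by time point, with 3 samples against 3, few differences passed. At D12, 2 of the 8 genes were called, Cldn4 and Epcam, where 9.54% of all genes were. Cldn4 at D12 was 10.4, 16.2 and 31.2 FPKM in cTECs and 30.4, 55.7 and 69.9 FPKM in mTECs, the lowest mTEC sample lying just under the highest cTEC sample (log2 difference 1.63, SE 0.35, adjusted p = 0.00097, limma-voom). Epcam was 53.0, 84.5 and 108 FPKM against 160, 193 and 173 FPKM, with no overlap (log2 difference 1.2, SE 0.28, adjusted p = 0.0022, limma-voom). Both calls were lost without cTEC D12 replicate 1, the sample with the lowest level of each gene, where the log2 differences fell to 0.82 and 0.80, and also without mTEC D12 replicate 2 (1.53 and 1.10). Cldn3, Cldn7 and Cdh1 had log2 differences of 1.04, 1.51 and 0.55 at D12 (adjusted p = 0.023, 0.011 and 0.025, limma-voom), none called, while all 3 mTEC samples lay above all 3 cTEC samples for each of these genes and for Ocln. Without cTEC D12 replicate 1 the difference of Cldn3 was 0.32. Cldn1 and Cldn8 lay the other way round at D12, also without overlap. Cldn1 was 26.8, 39.7 and 28.2 FPKM in cTECs and 22.2, 25.4 and 17.5 FPKM in mTECs (log2 difference -0.39, SE 0.25, adjusted p = 0.31, limma-voom). Cldn8 was 1.06, 1.02 and 1.49 FPKM in cTECs and 0, 0.16 and 0 FPKM in mTECs (-5.12, SE 1.72, adjusted p = 0.033, limma-voom), a fitted value that rests on 2 mTEC libraries at 0. Neither was called.

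At the other 5 replicated time points limma-voom called 0 of the 8 genes, against 5.12% of all genes at NPC, 1.67% at D-2, 2.74% at D0, 1.49% at D3 and 4.19% at D6. At an unadjusted p under 0.05 there were 5 of the 8 at NPC, 1 at D-2, 3 at D3 and 2 at D6, where 25.6%, 17.2%, 20.9% and 21.8% of all genes were. At D0 the lowest unadjusted p of the 8 was 0.057 (Ocln, limma-voom), where 21.5% of all genes were under 0.05. At NPC, D-2, D3 and D6 edgeR called 0 of the 8, where it called 3.01%, 1.86%, 1.95% and 3.32% of all genes. DESeq2 called Epcam at NPC and D3 and Cldn4 at D6, where it called 5.56%, 5.05% and 6.05% of all genes. Cldn4 at NPC was 17.5, 12.7 and 29.9 FPKM in cTECs and 35.9, 43.9 and 75.0 FPKM in mTECs, which do not overlap (log2 difference 1.48, SE 0.55, adjusted p = 0.076, limma-voom). At D-2 the order of Cldn1 was the other way round. It was 60.6, 62.0 and 67.7 FPKM in cTECs against 23.8, 31.0 and 40.2 FPKM in mTECs (log2 difference -0.88, SE 0.24, adjusted p = 0.028, limma-voom), with no overlap, but below the 2-fold limit.

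Other junction genes, from lists of the same pathway, were tested in the same fit. The counts below are for the contrast over all time points unless a time point is named. Of all 18394 genes in it 23.3% were called, 3433 higher in mTECs and 860 lower. The counts from each list are to be read beside that share and that direction. Of 23 other claudins listed, 10 passed the filter on low values, and 5 of these were higher in mTECs and none lower. Cldn13 had a log2 difference of 3.84, Cldn9 of 3.10, Cldn11 of 2.82, Cldn6 of 2.07 and Cldn23 of 2.01. The means of Cldn9 and Cldn11 were 2.44 and 2.29 FPKM in cTECs and 8.81 and 9.13 FPKM in mTECs. Those of Cldn6, Cldn13 and Cldn23 were 0.655, 1.05 and 1.31 FPKM in cTECs and 1.96, 8.71 and 2.53 FPKM in mTECs. Of 19 tested tight-junction membrane and scaffold genes, 5 were higher in mTECs and none lower. They were the scaffolds Tjp3 (ZO-3, log2 difference 1.80) and Magi1 (1.51), tricellulin (Marveld2, 1.62), Jam3 (3.23) and the polarity protein Crb3 (1.80). At single time points Amotl1 (NPC, D0 and D12) and Prkci (NPC and D12) were also called lower in mTECs, and Lsr (D6 and D12) higher. Jam3 had means of only 0.647 FPKM in cTECs and 2.57 FPKM in mTECs, and fitted differences at such low levels are imprecise.

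Among 12 epithelial transcription factors 4 were higher in mTECs, Ehf (log2 difference 1.69), Elf5 (3.62), Grhl3 (2.5) and Ovol1 (1.39), and none was lower. Elf5, Grhl3 and Ovol1 had low means, of 0.604, 1.49 and 1.81 FPKM in cTECs and 2.53, 4.87 and 3.37 FPKM in mTECs. Over all time points the 13 adherens-junction genes gave no call in either direction. At single time points Cdh2 was called lower in mTECs at D-2 (log2 difference -1.21) and Nectin2 higher at D6 (1.26). The highest members, Ctnnb1 (beta-catenin) and Jup (plakoglobin), had means of 222 and 219 FPKM in cTECs and of 188 and 149 FPKM in mTECs. Of 6 EpCAM partners none was called over all time points, Spint2 and Cd9 being the highest at 227 and 124 FPKM in cTECs and 359 and 130 FPKM in mTECs. At NPC alone Spint2 was called higher in mTECs (log2 difference 1.29). The 7 desmosomal plaque genes gave 1 call each way, Pkp2 higher (log2 difference 1.87) and Evpl lower in mTECs (-1.09). Of 6 repressors of epithelial genes 4 were tested, and Zeb2 (-2.22) and Twist1 (-2.35) were lower in mTECs, both from means at or below 1.11 FPKM.

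Beside these differences, macrophage and dendritic markers were higher in mTECs in 8 of 10 tested and lower in 1, with a summed level of 20.3 to 225 FPKM in mTECs and 4.48 to 45.3 FPKM in cTECs, and thymocyte markers were lower in 10 of 12. Their part in the differences of the junction genes was not tested. Without the 5 cTEC samples richest in parathyroid markers, 3 of the 8 genes were again called.

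**Figure D2:**
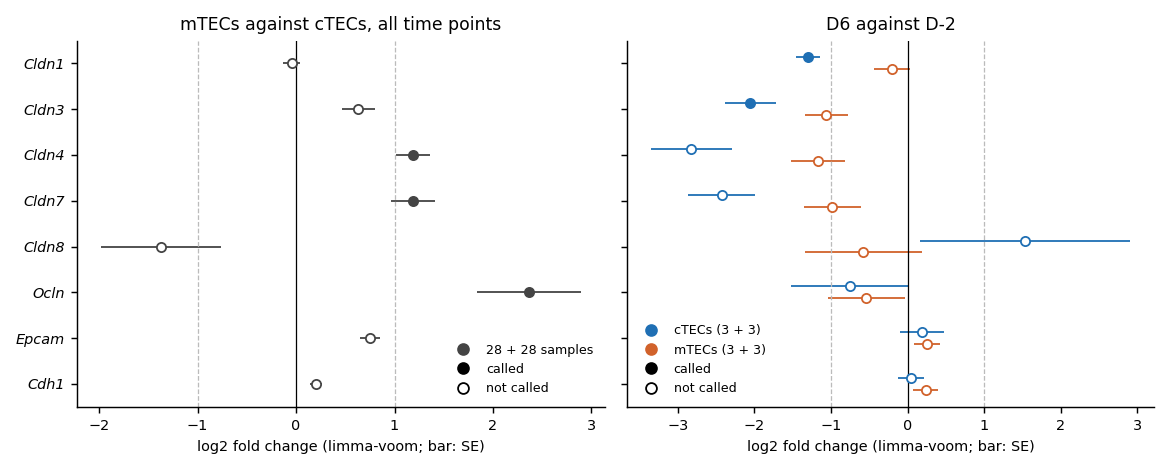
Log2 fold change of each of the 8 genes (limma-voom) for mTECs against cTECs over all time points (left, 28 samples each) and for D6 against D-2 within each cell type (right, 3 samples each). Bars are standard errors, filled circles are called (at least 2-fold, adjusted p at most 0.01), open circles are not, and dashed lines stand at 2-fold. On the right, Cldn1 (-1.30) and Cldn3 (-2.05) are filled in cTECs and no gene is in mTECs.

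D-2 is the end of gestation, when the thymus is smallest, and D6 the time of its fastest regrowth, and the contrast asks what changes in the epithelium between them. In cTECs Cldn1 and Cldn3 fell, 2 of the 8 genes, where 1.34% of all genes were called. Cldn4 and Cldn7 had larger differences in the same direction (log2 changes of -2.82 and -2.43) but more spread, and were not called. The adhesion genes Epcam and Cdh1 had log2 changes of 0.19 (SE 0.28) and 0.04 (SE 0.17), neither called. The median log2 change of the 8 genes was -1.02, against -0.03 over all 15845 genes tested. The 8 changes ran from -2.82 (Cldn4) to 1.54 (Cldn8, SE 1.37). The median is a description only, since the genes were chosen with earlier results of these data known.

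Cldn1 in cTECs was 60.6, 62.0 and 67.7 FPKM at D-2 and 24.5, 29.6 and 24.8 FPKM at D6. The groups stood far apart, with a log2 change of -1.30 (SE 0.16, adjusted p = 0.0021, limma-voom). The D-2 samples were above every other cTEC sample, the nearest being 59.9 FPKM at D3, and D-2 above D3 was the one step in the order of the 6 replicated time points whose samples did not overlap.

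Cldn3 in cTECs was 23.7, 26.8 and 15.6 FPKM at D-2 and 5.72, 4.81 and 6.22 FPKM at D6, again with no overlap (log2 change -2.05, SE 0.33, adjusted p = 0.0084, limma-voom). Its means ran from D-2 (22.1 ± 5.78, SD, n = 3) through D0 (17.8 ± 5.32), D12, D3 and NPC (7.81 ± 5.39) to D6 (5.58 ± 0.715), and the samples of each pair of neighbours in this order overlapped.

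Cldn4 in cTECs was 16.4, 39.0 and 21.8 FPKM at D-2 and 1.68, 4.71 and 10.5 FPKM at D6, a log2 change of -2.82 (SE 0.53, adjusted p = 0.016, limma-voom). Cldn7 was 17.3, 36.0 and 15.5 FPKM at D-2 and 2.95, 4.51 and 8.28 FPKM at D6 (-2.43, SE 0.44, adjusted p = 0.014, limma-voom). Neither gene's groups overlapped, although neither adjusted p reached 0.01. DESeq2 called all 4 claudins, edgeR called 2 of the 8 genes, and limma-trend on log2(FPKM + 0.5) called 0. Over all 15845 genes they called 4.80%, 1.87% and 0.0316%.

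The calls rested on few samples. Leaving out 1 sample left Cldn1 (without any one D6 sample), Cldn3 (without D-2 replicate 3) or neither (without D-2 replicate 1 or 2) called, while the log2 changes stayed between -1.42 and -1.24 for Cldn1 and between -2.27 and -1.87 for Cldn3. D-2 replicates 1 and 2 were the cTEC libraries with the summed parathyroid level of 5668 and 9342 FPKM. Replicate 3, at 444 FPKM, had the highest Cldn1 of the 3, and with it alone standing for D-2 the log2 changes were -1.42 for Cldn1 (adjusted p = 0.16, limma-voom) and -1.57 for Cldn3 (adjusted p = 0.33), with 0 of the 8 genes called. With 1 sample at D-2, assumed to vary like the others, 0 of all 15845 genes were called, so the lost calls say nothing of these genes in particular.

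RNA of cell-type markers differed between the same samples. The summed level of the 8 cTEC markers was 1299 to 2094 FPKM at D-2 and 7445 to 8815 FPKM at D6, and 7 of the 8 rose between them. The mTEC markers summed to 1841 to 2356 FPKM at D-2 and 1414 to 1955 FPKM at D6, with 0 of 8 called. Krt5 took most of that sum, with means of 1621 and 1466 FPKM. Means also fell for Krt14 (388 to 201 FPKM), Spib (19.1 to 7.61), Aire (8.07 to 2.03) and Cd80 (4.85 to 0.63). Cd40 alone among the 8 had a higher mean at D6 (5.93 to 18.6 FPKM). Thymocyte markers summed to 22.4 to 25.3 FPKM at D-2 and 67.5 to 91.8 FPKM at D6, with 0 of 12 called. Fibroblast markers summed to 282 to 371 FPKM and 106 to 157 FPKM, with Dcn called. Dcn made up most of that sum, with means of 296 and 122 FPKM. Col3a1 had means of 12.4 and 11.1 FPKM, and Lum rose from 1.10 to 1.72 FPKM. The part of these shifts in the claudin changes was not tested.

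**Figure D3:**
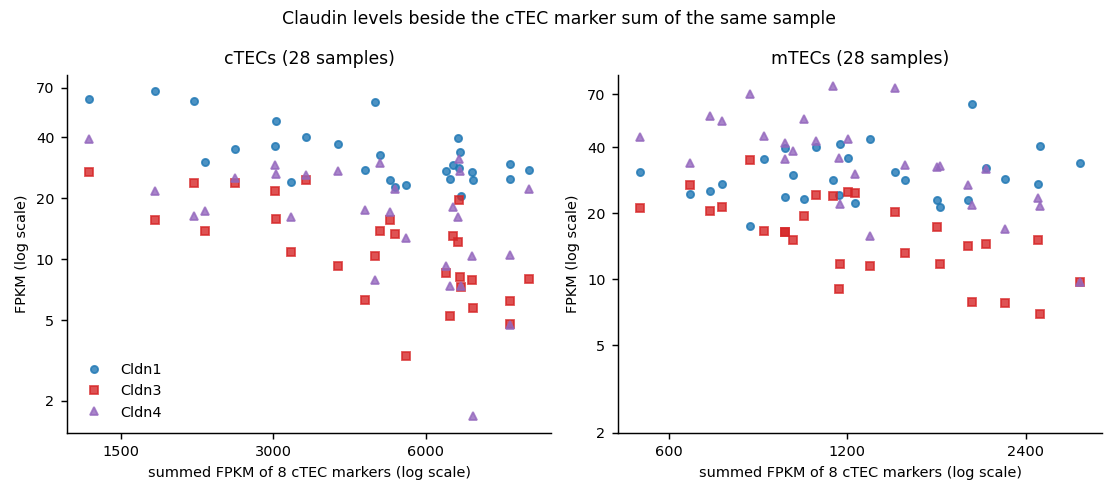
FPKM of Cldn1, Cldn3 and Cldn4 (y axis, log scale) against the summed FPKM of 8 cTEC markers (x axis, log scale) in the same sample, for 28 cTEC and 28 mTEC samples. Each point is 1 gene in 1 sample. In cTECs Cldn3 lies lower where the marker sum is higher (Spearman's rho -0.72), as does Cldn4 in mTECs (rho -0.73). Cldn1 does so in cTECs (rho -0.59) but not in mTECs (rho 0.17).

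Other junction genes gave few calls in cTECs between D-2 and D6, where 107 of 15845 genes were called higher at D6 and 106 lower. Tjp3, the ZO-3 scaffold that binds claudin tails, fell from 13.3, 22.9 and 8.21 FPKM to 2.00, 1.46 and 3.16 FPKM (log2 change -2.75, SE 0.40, adjusted p = 0.0057, limma-voom), the 1 call among 19 tight-junction membrane and scaffold genes. Nectin2, an adhesion molecule of adherens junctions, fell from 58.1, 23.7 and 26.8 FPKM to 6.51, 6.33 and 9.35 FPKM (-1.86, SE 0.21, adjusted p = 0.0016), the 1 call among 13 adherens-junction genes. For both genes every D-2 sample lay above every D6 sample.

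Of 12 epithelial transcription factors 2 fell and none rose. Elf3, an ETS factor of epithelia, went from 38.6, 46.9 and 37.6 FPKM to 12.8, 15.1 and 22.7 FPKM (log2 change -1.30, SE 0.21, adjusted p = 0.0091, limma-voom). Klf5 went from 20.3, 29.2 and 38.6 FPKM to 6.43, 6.85 and 9.38 FPKM (-2.04, SE 0.29, adjusted p = 0.0048). None of the 10 other claudins tested was called. Of their log2 changes 9 were below 0 and the median was -2.44, against -0.03 over all genes. Apart from Cldn12 (9.57 FPKM), their means over the cTEC samples were only 0.655 (Cldn6) to 2.44 FPKM (Cldn9), so these fitted changes are imprecise. The highest of them, Cldn12 and Cldn9, went from means of 7.47 and 2.73 FPKM to 10.6 and 1.63 FPKM. Desmosomal plaque genes, EpCAM partners and mesenchymal repressors gave no call among 7, 6 and 4 tested.

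In mTECs limma-voom called 0 of the 8 genes between D-2 and D6, where 0.299% of all genes were called, and edgeR and DESeq2 also called 0. Cldn3, Cldn4 and Cldn7 had an unadjusted p under 0.05, as did 20.3% of all genes. Cldn3 was 16.4, 21.2 and 24.2 FPKM at D-2 and 11.7, 9.76 and 7.83 FPKM at D6, without overlap (log2 change -1.06, SE 0.28, adjusted p = 0.083, limma-voom). Cldn4 was 35.3, 44.4 and 43.0 FPKM and then 32.9, 9.72 and 17.0 FPKM (-1.17, SE 0.36, adjusted p = 0.12), also without overlap. Cldn7 went from 19.5, 26.3 and 18.9 FPKM to 20.7, 6.13 and 6.67 FPKM, with 1 D6 sample inside the D-2 range (-0.98, SE 0.37, adjusted p = 0.18). Single D6 samples set the size of both, the log2 change being -1.83 for Cldn4 and -1.64 for Cldn7 without mTEC D6 replicate 1, and -0.56 and -0.53 without mTEC D6 replicate 2. Cldn1 was 23.8, 31.0 and 40.2 FPKM at D-2 and 21.3, 34.1 and 28.6 FPKM at D6, which overlapped (-0.21, SE 0.24, adjusted p = 0.66).

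Whether the D6 to D-2 change differs between the cell types was tested as an interaction. None of the 8 genes was called by limma-voom, edgeR or DESeq2, and 0.00544% of all genes were called by limma-voom. The 4 with an unadjusted p under 0.05, which 2203 of all 18394 genes had, were Cldn1, Cldn3, Cldn4 and Cldn7. Their mTEC change minus their cTEC change was 1.08 for Cldn1 (SE 0.30, adjusted p = 0.18, limma-voom), 1.01 for Cldn3 (SE 0.43, adjusted p = 0.37), 1.70 for Cldn4 (SE 0.70, adjusted p = 0.35) and 1.48 for Cldn7 (SE 0.61, adjusted p = 0.35). On leaving out 1 sample the value of Cldn4 ran from 0.96 (without cTEC D6 replicate 1) to 2.3 (without mTEC D6 replicate 2) and that of Cldn7 from 0.78 (without mTEC D6 replicate 1) to 1.98 (without mTEC D6 replicate 2).

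Comparing D-2 with NPC asks what pregnancy itself changes. Limma-voom called no gene at all in cTECs or in mTECs, 0% in each, so this contrast could not single out any gene. In cTECs 2 of the 8 had an unadjusted p under 0.05, Cldn1 and Cldn3, as did 9.87% of all genes, edgeR called 0 and DESeq2 called Cldn1. Cldn1 in cTECs went from 27.5, 23.3 and 32.5 FPKM at NPC to 60.6, 62.0 and 67.7 FPKM at D-2, a log2 change of 1.26 (SE 0.17, adjusted p = 0.062, limma-voom). Cldn3 went from 6.30, 3.34 and 13.8 FPKM to 23.7, 26.8 and 15.6 FPKM (1.97, SE 0.49, adjusted p = 0.28). For both genes every D-2 sample lay above every NPC sample, and the cTEC marker sum was 4545 to 5495 FPKM at NPC. The D-2 samples also serve the contrast of D6 with D-2, so the values of these contrasts are not independent.

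In mTECs Cldn7 was 55.2, 71.9 and 40.1 FPKM at NPC and 19.5, 26.3 and 18.9 FPKM at D-2, with no overlap, but with an adjusted p of 0.39 (limma-voom, log2 change -0.59, SE 0.27) and no call by edgeR or DESeq2. The change was larger on the FPKM scale than in the counts, with -1.33 by limma-trend on log2(FPKM + 0.5), also not called. RSEM scales FPKM by the length of the transcripts it assigns in each sample, and the part of this in the difference was not tested. D12 against NPC gave no call by limma-voom in either cell type, 0% of all genes in each, and none among the 8 genes by edgeR or DESeq2. Among the 8 genes only Ocln in mTECs, with 1 of its NPC libraries at 0, had an unadjusted p under 0.05, where 6.61% of all genes did.

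The late phase was set against the early phase to ask what accompanies the return of mature thymocytes. None of the 8 genes was called in cTECs, where 1.41% of all genes were, or in mTECs, where 0.062% were, by limma-voom, edgeR or DESeq2. An unadjusted p under 0.05 was reached by Cldn4, Cldn7 and Ocln in cTECs and by Cldn3, Cldn4 and Cldn7 in mTECs, each with a higher late mean, and by 4310 of all 15845 genes in cTECs and 3541 of 17743 in mTECs.

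Cldn4 in cTECs was 22.2, 25.9, 29.2 and 27.2 FPKM at D16, D20, D24 and D28, inside the early range of 1.68 to 31.2 FPKM but above the early median of 16.2 (log2 change 1.07, SE 0.38, adjusted p = 0.071, limma-voom). Cldn7 in cTECs was 23.1, 17.3, 37.5 and 18.9 FPKM, against an early range of 0 to 26.8 and a median of 9.25 FPKM (1.19, SE 0.41, adjusted p = 0.060). Cldn7 in mTECs was 67.3, 53.6, 41.7 and 26.8 FPKM, against an early range of 6.13 to 53.5 and a median of 21.4 FPKM (0.80, SE 0.23, adjusted p = 0.057). All 4 late samples were above the early median in each of these sets, and the sets still overlapped.

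Cldn4 in mTECs was 76.3, 52.7, 34.1 and 45.1 FPKM in the late phase, against 9.72, 31.1 and 69.9 FPKM as the lowest, median and highest early level (log2 change 0.57, SE 0.26, adjusted p = 0.22, limma-voom). Ocln was 10.8, 10.3, 20.7 and 1.78 FPKM in late mTECs, the D24 sample being the highest of all 56 for this gene, and 2.54, 2.91, 1.84 and 2.61 FPKM in late cTECs. In late cTECs that was a voom log2 change of 2.47 (SE 0.85, adjusted p = 0.059), with 4 early libraries at 0, and limma-trend on log2(FPKM + 0.5) gave 0.84 (adjusted p = 0.50). As an interaction, the difference between the cell types in the late change was called for none of the 8 genes by limma-voom, edgeR or DESeq2, with 0.00544% of all genes called by limma-voom. Fibroblast markers in late cTECs summed to 292 to 676 FPKM, against 68.6 to 355 FPKM early. Dcn was the highest of them, with a mean of 259 FPKM over all cTEC samples, and Col3a1 came next at 21.1 FPKM. Parathyroid markers reached 5728 FPKM at D24. The part of either marker set was not tested.

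Across samples 5 of the 8 genes ran in 2 sets, with Cldn1, Cldn8 and Ocln in neither. Cldn3, Cldn4 and Cldn7 varied alongside each other in both cell types, with Spearman's rho of 0.65 to 0.70 over 28 cTEC samples and of 0.54 to 0.72 over 28 mTEC samples. Epcam and Cdh1 formed the other pair (rho 0.69 in cTECs and 0.70 in mTECs). Between the sets rho stayed between 0.23 and 0.47 in cTECs and between -0.22 and 0.37 in mTECs. Cldn1 went with Cldn3 in cTECs (rho 0.62) and against it in mTECs (-0.34). By Pearson's r of log2(FPKM + 0.5) the set of Cldn3, Cldn4 and Cldn7 stood less apart in cTECs. There Cldn4 with Cldn7 was at 0.44 and Cldn3 with Cldn7 at 0.52, beside 0.39 for Cldn4 with Epcam and 0.58 for Cldn1 with Cldn3. Points share their library, so depth and RNA quality enter each correlation, and no p is given.

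**Figure D4:**
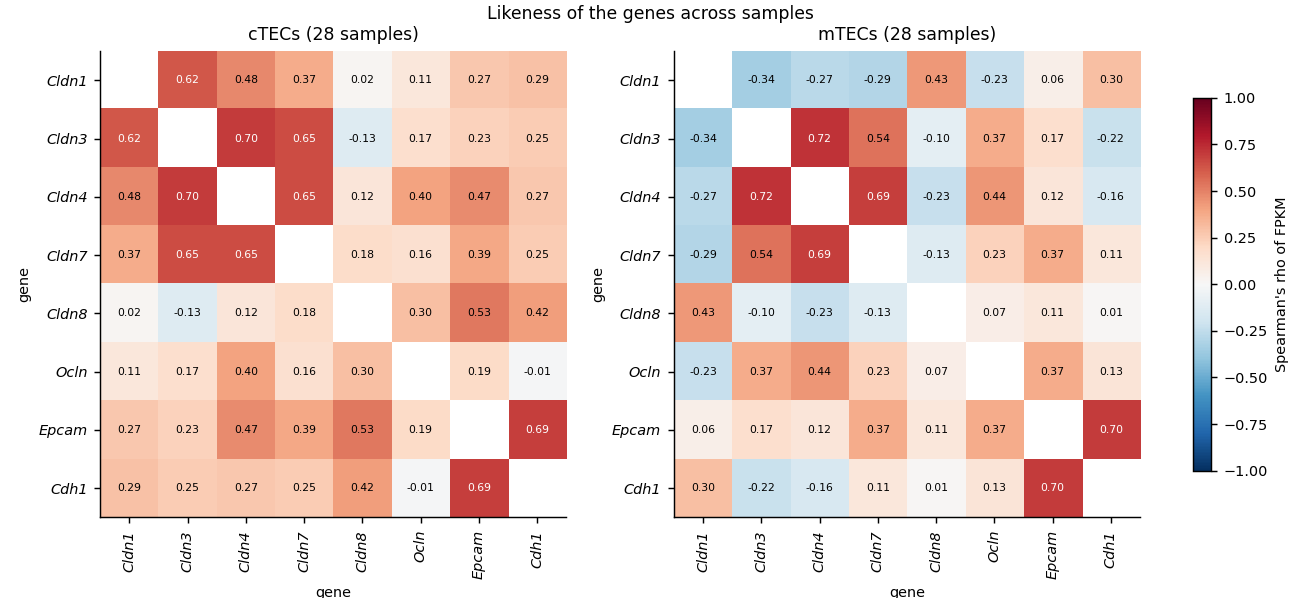
Spearman's rho between the FPKM of each pair of the 8 genes over 28 cTEC samples (left) and 28 mTEC samples (right), with the value printed in each cell and colour running from -1 (blue) to 1 (red). Cldn3, Cldn4 and Cldn7 form a block of 0.54 to 0.72 in both panels, and Epcam with Cdh1 stands at 0.69 and 0.70.

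The levels also ran with features of the libraries. Cldn4 was higher where more genes were above 1 FPKM (rho 0.61 in cTECs and 0.77 in mTECs), as were Cldn3 (0.43 and 0.54), Cldn7 (0.51 and 0.46) and Ocln (0.43 and 0.53), while Epcam (0.50 and 0.00) was so in cTECs and Cdh1 stood at 0.04 and -0.32. Epcam and Cdh1 were higher where mitochondrial transcripts took a smaller share of the FPKM, with rho of -0.44 and -0.61 in cTECs and of -0.54 and -0.52 in mTECs. Epcam was 183 FPKM in cTEC NPC replicate 3, the library with the lowest mitochondrial share (1.83%), and 73.7 and 76.2 FPKM in the other 2 NPC libraries (4.92% and 4.82%). Cldn3 and Cldn4 were higher where the cTEC marker sum was lower, with rho of -0.72 and -0.46 in cTECs and of -0.66 and -0.73 in mTECs. So was Cldn7 (-0.42 in cTECs and -0.52 in mTECs). Cldn1 was so in cTECs (-0.59) but not in mTECs (0.17). Cldn7 in cTECs also ran with the parathyroid markers (rho 0.48).

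For each gene the 3 closest protein-coding genes were sought among 9844 with a mean of at least 5 FPKM, by Pearson's r over the 56 samples after removing the mean of each cell type. Cldn4 was closest to Fscn1 (fascin, an actin bundler, r = 0.85), Lypd8 (0.83) and Ctsh (cathepsin H, 0.82). Cldn7 was closest to Ank, the chemokine gene Ccl5 and Cystm1, each at 0.81. Cldn3 was closest to Dppa3 (0.78), Tjp3 (0.75) and Psors1c2 (0.74), so that 1 of its 3 was the tight-junction scaffold described above.

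Epcam was closest to Supt16 (0.79), the tetraspanin Cd9 (0.77) and Cdh1 (0.73). Cdh1 was closest to the lysosomal receptor Scarb2 (0.78), to Robo1 (0.76) and to Epcam (0.73), so each of the pair was among the other's closest 3. Cldn1 was closest to the potassium channel gene Kcnj15 (0.73), Pcyox1 (0.70) and Gsn (gelsolin, 0.67). Ocln (Il23a at 0.67 and 2610528A11Rik at 0.60 among its closest) and Cldn8 (Rasl11a at 0.58, Arid1a at 0.57 and Rnf113a2 at 0.56) had the weakest likeness, at the lowest levels.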

How the data were processed

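RNA from sorted cTECs and mTECs was sequenced from stranded poly(A) libraries (KAPA RNA HyperPrep), 1 mouse per sample. Per the labels and the submitters' processing notes, the authors used bcl2fastq 2.20, Trimmomatic 0.35, STAR 2.5.1b, RSEM 1.2.28 and GRCm38. The deposited expected count of each gene is RSEM's estimate and is not normalized. The deposited FPKM and TPM values are scaled by the authors for gene length and library. The annotation release is not given in the sources used here, and GENCODE M21 matched 50376 of 50600 identifiers.

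Expected counts were rounded and tested in R 4.3.3 with limma 3.58.1 (voom, after TMM scaling by edgeR 4.0.16) where mean FPKM over a cell type's 28 samples reached 0.5 (in either cell type when both were compared). Calls needed a 2-fold difference or more and an adjusted p (Benjamini-Hochberg, over every gene tested) not above 0.01. All 8 genes passed the filter in every comparison. Cell types were compared in 1 fit with a mean per cell type and time point. Contrasts of 2 time points used only their samples, 3 against 3. Alternatives were edgeR, DESeq2 1.42.0, limma-trend with a pseudocount of 0.5 or 0.1 on log2 FPKM, no TMM, sample quality weights, no filter, an adjusted p of 0.05, D12 counted as late, replicate blocks and leaving out samples. Simulated counts were also run through limma-voom and edgeR for mTECs against cTECs over all time points. The same was done, with DESeq2 added, for D6 against D-2 in cTECs and for late against early phase in mTECs. No other comparison or alternative was simulated.

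Total counts per sample (median 17972566) left Ocln and Cldn8 with medians of 46 and 55 counts in cTECs and 202 and 31 in mTECs, so their fold changes are imprecise. Levels are FPKM, mean ± SD where n is given. The genes of each list that the text names are those called in the comparison, and otherwise the 2 with the highest mean. The 8 genes and the lists were chosen with earlier results of these data known. The parathyroid markers, and the comparisons without samples rich in them, were chosen after seeing the data. Likeness was computed in Python with NumPy and SciPy, and 1 gene close to Ocln is not reported here.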

Additional observations from a re-analysis of the deposited data

How the results depend on the processing

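With 3 samples per group, a change had to be large against the spread for a call, and Ocln and Cldn8 were limited by their low counts. Between cell types over all time points 3 of the 8 genes were called, and 1 (Cldn4) by limma-trend on log2(FPKM + 0.1). The number was 2 to 3 on leaving out each replicate, 2 without cTEC D3 replicate 2. At NPC 0 were called, but 1, Epcam, with an adjusted p of 0.05, by DESeq2, with the replicate block (mouse), and without any one of cTEC NPC replicate 3, mTEC NPC replicate 1, cTEC D-2 replicates 1 or 2, mTEC D-2 replicate 3, mTEC D0 replicates 2 or 3, or cTEC D12 replicates 1 or 3 (0 to 1 over all replicates left out). At D-2 sample quality weights called 1 (Cldn1), and DESeq2 called 1 at D3 (Epcam) and 1 at D6 (Cldn4), against 0. At D12 the 2 calls became 5 with an adjusted p of 0.05, 0 by edgeR, 1 by DESeq2 (Epcam), 0 by limma-trend with either pseudocount, and 0 to 3 on leaving out each replicate. Of all genes, 14.1% were called at D12 with an adjusted p of 0.05, 4.06% by edgeR and 6.51% by DESeq2. At NPC the shares were 10.3% with an adjusted p of 0.05, 5.56% by DESeq2 and 5.34% with the block. Quality weights called 6.75% at D-2, and DESeq2 called 5.05% at D3 and 6.05% at D6.

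For D6 against D-2 in cTECs the 2 calls became 4 with an adjusted p of 0.05, 4 by DESeq2, 4 with no filter, 1 with quality weights, 0 by limma-trend with either pseudocount, 0 without the 2 D-2 samples rich in parathyroid markers (as for all 15845 genes) and 0 to 1 on leaving out each replicate. For D-2 against NPC in cTECs DESeq2 and no filter each called 1 (Cldn1) in place of 0, where they called 0.568% and 0.196% of all genes. The causes of these differences were not tested. The share of all genes called ranged over the settings from 14.7% to 27.1% between cell types and from 0% to 4.80% for D6 against D-2 in cTECs. The direction changed for Cldn1 between cell types with DESeq2 (0.0039 on the log2 scale), and for Cldn1 between D-2 and D6 in mTECs with quality weights (0.03) and on leaving out a replicate (-0.41 to 0.045, above 0 without mTEC D6 replicate 1 and, at 0.035, without mTEC D-2 replicate 3). Between D-2 and D6 in cTECs the log2 changes of Epcam (-0.11 to 0.44) and Cdh1 (-0.07 to 0.15) fell below 0 without D6 replicate 3 or D-2 replicate 1. With no TMM scaling no log2 change given in the report changed sign. TPM in place of FPKM gave mTEC to cTEC ratios of 1.96 for Cldn4 and 1.85 for Cldn7.

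The labels give samples the same numbers. Over 16 pairs of cTEC and mTEC samples of 1 time point and number, deviations from group means correlated between -0.20 and 0.23. The median was 0.085, and 5 pairs were above 0.1. Correlations of this size cannot decide whether 2 such samples came from the same mouse. The main fits did not pair them, and a block on the number was run as an alternative. Within a cell type, same-numbered samples of 2 time points correlated between -0.17 and 0.15. With a replicate block the number of called genes among the 8 was 3 over all time points, 2 at D12 and 2 for D6 against D-2 in cTECs.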
